A study of Homo sapiens with 9 samples.

Results

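LCLAT1 and 8 other phospholipid acyltransferase genes (LPCAT1, LPCAT2, LPCAT3, LPCAT4, AGPAT1, AGPAT2, AGPAT3 and AGPAT5) were followed across 9 RNA libraries of SKBR3 cells, a long-established human line from a breast tumour that carries extra copies of ERBB2. The 9 genes were taken by symbol out of the 20812 genes measured, and all 9 passed the filter of a mean of at least 1 RPM (reads scaled to a common library total) that left 11158 genes for testing. LCLAT1 was chosen by its measured RPM differences of siRNA 2 against control and against siRNA 1, in which it was low, so its values are given as a description without a test. The other 8 genes were added for their kinship in function, with results of these data known.

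The cells received PVRL4 siRNA #2 (siRNA 2 below), PVRL4 siRNA #1 (siRNA 1) or a non-targeting control siRNA, with 3 libraries in each group. Each siRNA was given at 10 nM in a lipid transfection reagent for 48 h. PVRL4 encodes nectin-4, a cell adhesion protein. The control duplex and the PVRL4 duplexes came from different suppliers, the siRNA sequences were not used here, and nothing states that the replicates were separate cultures, so the p-values measure the spread between these libraries, which may be technical.

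Membrane phospholipids carry a pair of fatty acyl chains, and acyltransferases decide which these are. The AGPAT enzymes add the second chain to lysophosphatidic acid and so make phosphatidic acid, the precursor of all glycerophospholipids. The LPCAT enzymes put a chain back on a lysophospholipid that a phospholipase has opened, a cycle of removal and repair known as the Lands cycle. LCLAT1, also called LYCAT or ALCAT1, sits in the endoplasmic reticulum and its associated membranes and reacylates acidic lysophospholipids, among them lysocardiolipin and lysophosphatidylinositol.

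The library checks were as follows. The 8 libraries whose RPM steps were used as whole reads held 10145423 to 10707777 reads. PVRL4 itself was at 3.39, 2.91 and 2.58 RPM with siRNA 2, at 5.99, 4.36 and 4.67 RPM with siRNA 1 and at 9.93, 7.86 and 11.6 RPM in control, so that every PVRL4 siRNA library lay below every control library. The fall passed the threshold with siRNA 2 (limma adjusted p = 0.00224) and not with siRNA 1 (limma adjusted p = 0.0601, 0.0132 with the replicate block). All 8 epithelial and SKBR3 markers were detected in every library, and their summed level was 8674 to 9142 RPM with siRNA 2, 10066 to 10499 RPM with siRNA 1 and 10276 to 10923 RPM in control. Of 8 leukocyte markers, PTPRC, CD3D and MS4A1 were at 0 in all 9 libraries and none reached 3 reads in every library; their sum was 0.0950 to 1.26 RPM with siRNA 2, 0.387 to 0.561 RPM with siRNA 1 and 0.284 to 0.395 RPM in control. Of 8 fibroblast and endothelial markers only COL1A1 and CDH5 reached 3 reads in every library, and the sum was 9.35 to 15.7 RPM with siRNA 2, 13.2 to 14.1 RPM with siRNA 1 and 10.2 to 14.2 RPM in control. A set of 18 interferon-stimulated genes summed to 149 to 228 RPM with siRNA 2, 899.9 to 6256 RPM with siRNA 1 and 142 to 147 RPM in control.

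LCLAT1, the lysocardiolipin and lysophosphatidylinositol acyltransferase gene on chromosome 2 (amplicon AMPL6017167), stood lower in the siRNA 2 libraries than in the other 6. It measured 44.1, 54.3 and 41.5 RPM with siRNA 2, 106.8, 89.9 and 92.3 RPM with siRNA 1, and 103.9, 101.9 and 100.0 RPM in control. The 3 siRNA 2 values lay below all others, while the siRNA 1 values spanned the control values, with 1 library above them and the other 2 below. The level with siRNA 2 averaged 46.6 ± 6.74 RPM, against 102 ± 1.95 RPM in control (SD, n = 3 each), which is 45.7% of the control level and a log2 difference of -1.12. It was the eighth lowest of the 11158 log2 differences of that comparison, in which 0.645% of genes passed the threshold as lower. These differences are the ones that drew attention to the gene, and nothing further is read from them.

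Taken by replicate number, the log2 differences of LCLAT1 for siRNA 2 against control were -1.22, -0.90 and -1.25. These are parts of the values that chose the gene, so they too are a description without a test. Against siRNA 1 the differences were -1.26, -0.72 and -1.13, and the mean level was 48.4% of that with siRNA 1. Replicate 2 of siRNA 2, with the highest of the 3 LCLAT1 values, was the mildest case in both comparisons. In bulk RNA such a level cannot tell fewer cells that express a gene from less RNA of it per cell. The summed epithelial markers were also lower in the siRNA 2 libraries, by the ranges given above, and their part in the LCLAT1 level was not tested.

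With siRNA 1, LCLAT1 averaged 96.3 ± 9.18 RPM, against 102 ± 1.95 RPM in control (SD, n = 3 each), a log2 difference of -0.09. Both groups were the references of the differences that chose the gene, so their likeness is partly fixed by that choice, and this value too is a description without a test. In order of level control came first and siRNA 1 next, with overlapping values, and siRNA 2 came last.

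**Figure D1:**
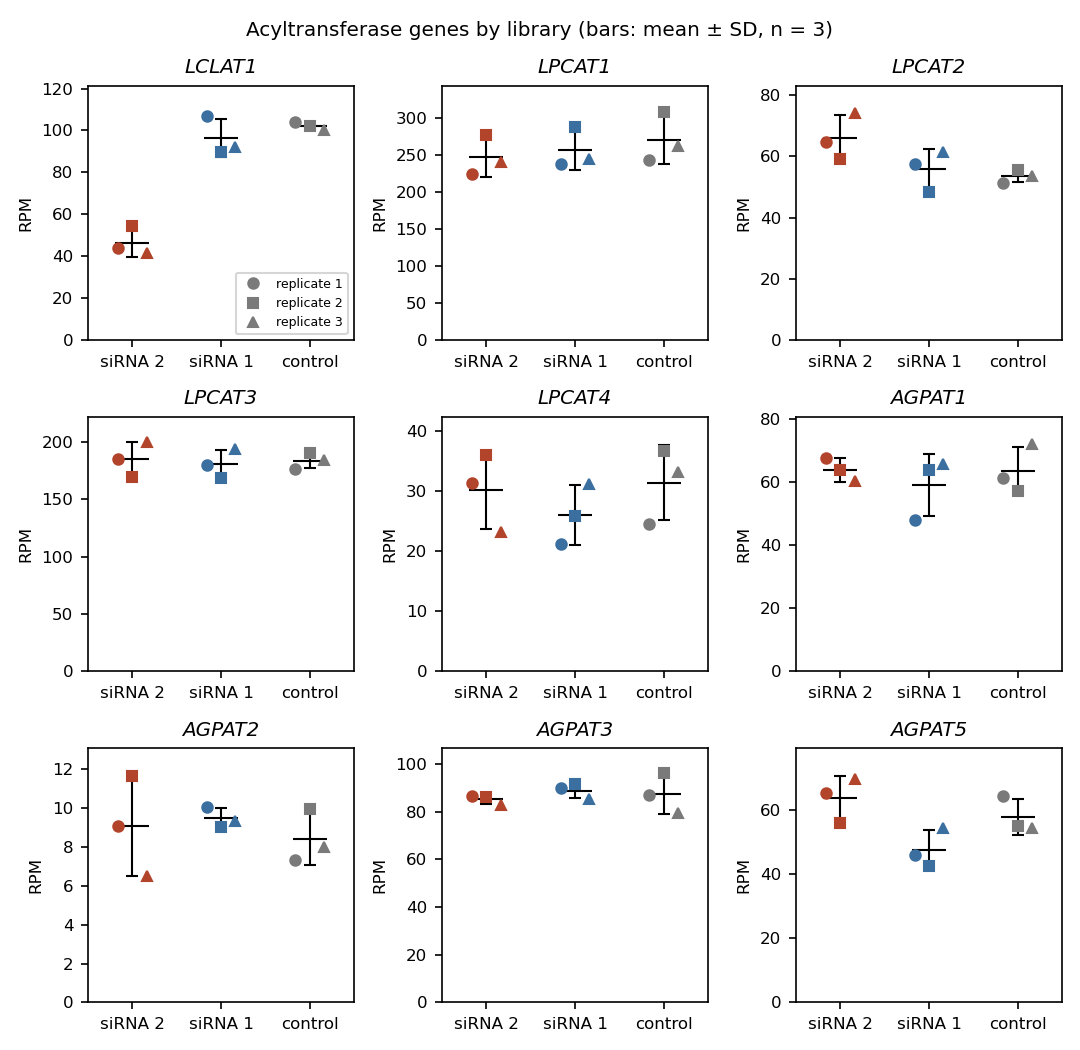
Level of each of the 9 acyltransferase genes in RPM (vertical axes, from 0) in the libraries with siRNA 2, siRNA 1 and control siRNA; points are libraries, marked by replicate number, and bars are the mean and SD of 3. LCLAT1 lies between 41.5 and 54.3 RPM with siRNA 2 and between 89.9 and 106.8 RPM in the other 6 libraries, while the groups of LPCAT1, LPCAT3, LPCAT4, AGPAT1, AGPAT2 and AGPAT3 overlap in every comparison.

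The other 8 acyltransferase genes did not follow LCLAT1. Against control, siRNA 2 gave 0 calls among the 8 by limma, edgeR and DESeq2 (1 at an unadjusted p under 0.05 by each), where limma called 0.681% of all genes, or 3.41% with the replicate block, in which the replicate number is a term of the fit and again 0 of the 8 passed. At an unadjusted p under 0.05 limma had 9.42% of all genes. Of the 8, 5 had a log2 difference above 0 and 3 below, where 45.4% of all genes were above 0 and 54.6% below; the median was 0.01, against -0.02 over all genes tested. Their median difference in size was 0.07 on the log2 scale, against 0.12 over all genes tested. With siRNA 1 none of the 8 passed either by limma (1 at an unadjusted p under 0.05), edgeR or DESeq2 (0 each at an unadjusted p under 0.05), against 0.851% of all genes by limma (6.04% unadjusted), and none with the block, against 1.85%. Here 3 of the 8 lay above 0 and 5 below, where 53.9% of all genes lay above and 46.1% below, and the median was -0.05, against 0.01 over all genes. Between siRNA 2 and siRNA 1 none passed by limma (1 at an unadjusted p under 0.05), edgeR or DESeq2 (2 each), where 3.05% of all genes did by limma (15.1% unadjusted), and 1 passed with the block, against 9.33%. Of the 8, 5 lay above 0 and 3 below, where 42.9% of all genes lay above and 57.1% below, and the median was 0.08, against -0.04 over all genes. Over all 11158 genes, edgeR called 17 and DESeq2 89 for siRNA 2 against control, and 108 and 159 for siRNA 1 against control. They called 147 and 338 between siRNA 2 and siRNA 1. Both fits left out siRNA 2 replicate 1. At shares this small, 0 calls among 8 genes say little about those genes. For the unadjusted counts of edgeR and DESeq2 no share over all genes was taken.

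Among the lysophosphatidylcholine acyltransferases, LPCAT2 came closest to a difference. LPCAT2 makes phosphatidylcholine and the inflammatory lipid platelet-activating factor and is found on lipid droplets. It measured 64.6, 59.3 and 74.1 RPM with siRNA 2, 57.5, 48.5 and 61.5 RPM with siRNA 1, and 51.4, 55.6 and 53.7 RPM in control. Every siRNA 2 library was above every control library, a pattern that 4.99% of all genes showed, while the siRNA 1 libraries overlapped both other groups. The log2 difference of siRNA 2 over control was 0.29 (95% confidence interval 0.03 to 0.55). This did not pass the threshold (limma unadjusted p = 0.0305, adjusted p = 0.446, or 0.131 with the replicate block). The difference of siRNA 2 over siRNA 1, at 0.24, was also short of the threshold (limma adjusted p = 0.380, 0.154 with the block). LPCAT2 was higher with siRNA 2 in all 3 pairs of the same replicate number, against control and against siRNA 1. So was AGPAT5 in both comparisons. LPCAT3 was also higher in all 3 pairs against siRNA 1, by only 0.042, 0.008 and 0.044 on the log2 scale. How many of all genes keep their sign in all 3 pairs was not counted.

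LPCAT1, which makes the saturated phosphatidylcholine of lung surfactant, varied more with the replicate number than with the siRNA. It was at 225.1, 277.0 and 240.3 RPM with siRNA 2, at 238.1, 287.4 and 245.1 RPM with siRNA 1 and at 243.4, 307.8 and 262.3 RPM in control. Replicate 2 was the highest library and replicate 1 the lowest in each of the 3 groups. Within a replicate number siRNA 2 was below control in all 3 pairs, by 0.11, 0.15 and 0.13 on the log2 scale. The log2 difference over the group means was -0.13 (95% confidence interval without the replicate block -0.38 to 0.12). That interval includes the spread between replicate numbers. The limma adjusted p was 0.815, or 0.408 with the replicate block.

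LPCAT3, a member of the membrane-bound O-acyltransferase family that places polyunsaturated chains into phosphatidylcholine, was among the steadiest of the 9 genes. It averaged 185 ± 15.1 RPM with siRNA 2, 180.9 ± 12.6 RPM with siRNA 1 and 183.7 ± 6.77 RPM in control (SD, n = 3 each). The interval of its log2 difference was -0.20 to 0.22 for siRNA 2 against control and -0.23 to 0.18 for siRNA 1 against control, so differences beyond these bounds lie outside the 95% confidence limits. LPCAT4, which acylates lysophosphatidylethanolamine among others, averaged 30.2 ± 6.51 RPM with siRNA 2, 26.1 ± 4.98 RPM with siRNA 1 and 31.5 ± 6.25 RPM in control (SD, n = 3 each). Its replicates spread widely, with a pooled coefficient of variation of 20.2%, against 5.75% that counting its reads would give. The 95% confidence interval of its log2 difference was -0.47 to 0.35 with siRNA 2 and -0.66 to 0.15 with siRNA 1, each against control.

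Of the AGPAT genes, AGPAT5 had the largest differences. AGPAT5 is a lysophosphatidic acid acyltransferase found in mitochondria and the endoplasmic reticulum. It measured 65.6, 56.2 and 69.8 RPM with siRNA 2, 46.0, 42.8 and 54.5 RPM with siRNA 1, and 64.4, 55.1 and 54.4 RPM in control. Every siRNA 2 library was above every siRNA 1 library, as in 7.04% of all genes, and control lay between the 2 in mean and overlapped both. The log2 difference of siRNA 2 over siRNA 1 was 0.41 (95% confidence interval 0.14 to 0.69), which missed the threshold without the replicate block (limma adjusted p = 0.112) and passed it with the block (limma adjusted p = 0.0174), where 9.33% of all genes passed. By replicate number the differences were 0.50, 0.39 and 0.35.

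Against control, AGPAT5 was at 82.4% of the control level with siRNA 1 and at 110.2% with siRNA 2. The log2 difference was -0.28 with siRNA 1 (95% confidence interval -0.55 to -0.01, limma adjusted p = 0.804) and 0.14 with siRNA 2 (interval -0.14 to 0.41, limma adjusted p = 0.826), and neither passed. The siRNA 1 libraries were also the ones with the raised interferon-stimulated genes. In siRNA 1 replicates 1, 2 and 3 those genes summed to 6256, 899.9 and 2767 RPM, beside AGPAT5 at 46.0, 42.8 and 54.5 RPM, and their part in the AGPAT5 level was not tested.

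AGPAT1, AGPAT2 and AGPAT3 showed no difference that passed the threshold. AGPAT1, a widely expressed enzyme of the endoplasmic reticulum, averaged 63.9 ± 3.75 RPM with siRNA 2, 59.2 ± 9.87 RPM with siRNA 1 and 63.5 ± 7.68 RPM in control (SD, n = 3 each). AGPAT2, whose loss causes congenital lipodystrophy, was the least abundant in reads, with 68 to 120 reads in the 8 libraries, and averaged 9.07 ± 2.57 RPM with siRNA 2, 9.46 ± 0.531 RPM with siRNA 1 and 8.43 ± 1.35 RPM in control (SD, n = 3 each). The AGPAT2 intervals against control were wide, at -0.34 to 0.49 with siRNA 2 and -0.26 to 0.57 with siRNA 1 on the log2 scale. AGPAT3, which favours polyunsaturated chains, averaged 85.2 ± 2.17 RPM with siRNA 2, 88.8 ± 3.23 RPM with siRNA 1 and 87.4 ± 8.38 RPM in control (SD, n = 3 each), and had the lowest pooled coefficient of variation of the 9 genes, at 6.10%.

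**Figure D2:**
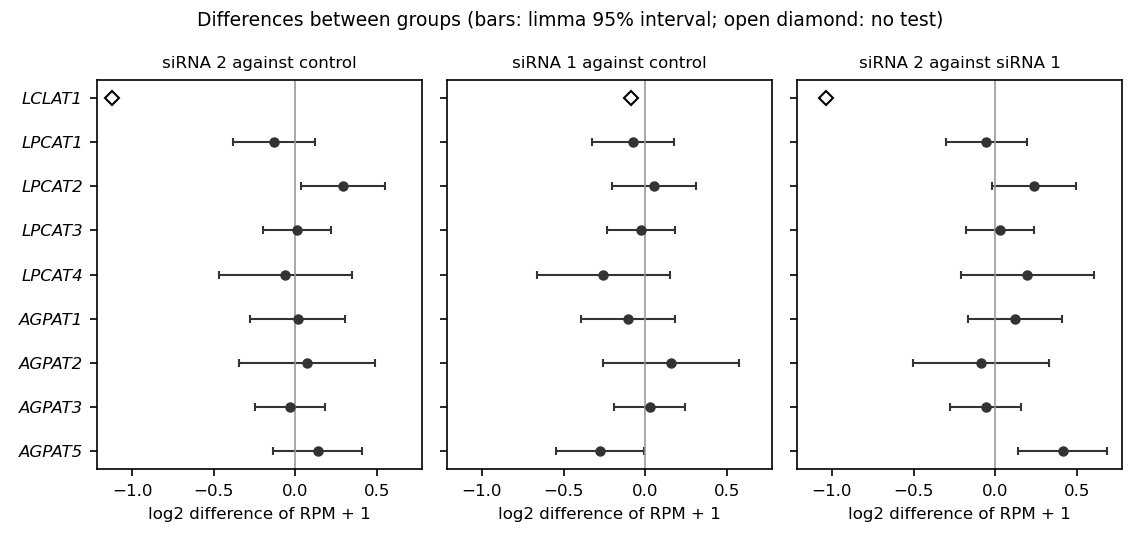
Log2 difference of RPM + 1 (horizontal axes) of the 9 genes for siRNA 2 against control, siRNA 1 against control and siRNA 2 against siRNA 1; bars are limma's 95% confidence intervals, and open diamonds mark LCLAT1, whose values have no test. LCLAT1 lies at -1.12 and -1.04 in the panels with siRNA 2 and at -0.09 in the other, and AGPAT5 at 0.41 is the furthest of the other genes from 0.

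The wider network of phospholipid genes was described by 7 lists, with 82 of 95 listed genes tested. With siRNA 2 none of the 82 passed against control by limma (8 at an unadjusted p under 0.05, where 9.42% of all genes were), edgeR or DESeq2 (5 and 4), with a median log2 difference of -0.05, against -0.02 over all genes. With siRNA 1 none passed by limma (2 at an unadjusted p under 0.05, where 6.04% of all genes were), edgeR or DESeq2 (3 and 2), with a median of -0.02, against 0.01 over all genes. Between siRNA 2 and siRNA 1 none passed by limma or edgeR, with 9 each at an unadjusted p under 0.05. Limma had 15.1% of all genes at that unadjusted level. DESeq2 called SCD alone as lower (adjusted p = 0.0400), where it called 338 of all 11158 genes. That fit left out siRNA 2 replicate 1, at 962.1 RPM the only siRNA 2 value of SCD within the siRNA 1 range. With the replicate block 5 of 82 passed in limma, where 9.33% of all genes did, a share that 5 of 82 does not reach. For the unadjusted counts of edgeR and DESeq2 no share over all genes was taken.

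Of the other acyltransferases, 8 of 10 were tested. AGPAT4 (0.379 to 0.934 RPM) and GPAT2, a mitochondrial glycerol-3-phosphate acyltransferase gene, lay under the filter. GPAM, the other mitochondrial enzyme that adds the first acyl chain, averaged 16.98 ± 1.86 RPM with siRNA 2 and 20.9 ± 3.07 RPM with siRNA 1 (SD, n = 3 each; log2 difference -0.28, limma adjusted p = 0.393; -0.170 without siRNA 1 replicate 1). MBOAT1, a lysophosphatidylserine acyltransferase gene, averaged 7.86 ± 2.49 RPM with siRNA 1 and 5.88 ± 1.59 RPM in control (SD, n = 3 each; log2 difference 0.36, limma adjusted p = 1). The MBOAT1 difference was 0.136 without siRNA 1 replicate 1, its highest library.

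All 12 genes of a mixed list for CDP-diacylglycerol, phosphatidylinositol, cardiolipin and phosphatidylserine metabolism were tested. Against control, 8 had a log2 difference below 0 with siRNA 2 (54.6% of all genes) and 11 with siRNA 1 (46.1% of all genes). CDIPT, the phosphatidylinositol synthase gene, measured 127.7, 117.9 and 103.0 RPM with siRNA 2, against 137.3, 139.7 and 152.1 RPM in control. These groups did not overlap, as in 8.95% of all genes in that direction. The log2 difference of -0.30 missed the threshold (limma adjusted p = 0.320, 0.0961 with the replicate block). With siRNA 1 CDIPT measured 123.7, 136 and 133.6 RPM, also below every control library, as in 5.59% of all genes. That log2 difference, -0.12, missed the threshold too (limma adjusted p = 0.726 with the replicate block). The siRNA 2 and siRNA 1 values of CDIPT overlapped. CDS1, a CDP-diacylglycerol synthase gene, measured 22.3, 24.4 and 21.2 RPM with siRNA 1, against 30.2, 29.3 and 27.4 RPM in control. Those groups did not overlap either, as in 5.59% of all genes. The log2 difference of -0.34 missed the threshold (limma adjusted p = 0.501, 0.168 with the replicate block).

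Of the 5 list genes called with the replicate block between siRNA 2 and siRNA 1, where 9.33% of all genes were called, 4 were in the lists of fatty acyl-CoA supply and phosphoinositide kinases. ACSL1, a long-chain acyl-CoA synthetase gene, averaged 56.96 ± 4.33 RPM with siRNA 2 and 74.4 ± 4.55 RPM with siRNA 1 (SD, n = 3 each; log2 difference -0.38, limma adjusted p = 0.118, 0.0154 with the block). SCD, the stearoyl-CoA desaturase gene, measured 962.1, 810.8 and 602.9 RPM with siRNA 2 and 1067, 942 and 1007 RPM with siRNA 1, with overlap (log2 difference -0.37, limma adjusted p = 0.203, 0.0305 with the block). Its log2 difference was -0.185 without siRNA 2 replicate 3, the lowest library, and -0.521 without siRNA 2 replicate 1. ACSL5, a related synthetase gene named after its values were seen, had a log2 difference of -0.33 (limma adjusted p = 0.332, 0.0448 with the block).

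PIP4K2A, a kinase gene that makes phosphatidylinositol bisphosphate, averaged 12.9 ± 2.21 RPM with siRNA 2 and 18.4 ± 3.90 RPM with siRNA 1 (SD, n = 3 each; log2 difference -0.47, limma adjusted p = 0.184, 0.0348 with the block). Its relative PIP4K2B averaged 24.8 ± 2.62 RPM with siRNA 2, against 32.5 ± 4.62 RPM in control (SD, n = 3 each; log2 difference -0.38, limma adjusted p = 0.343). Of these 2 lists 15 of 22 and 11 of 12 genes were tested. Between siRNA 2 and siRNA 1, 7 acyl-CoA supply genes lay above 0 and 8 below, and 6 kinase genes above and 5 below. Over all genes 42.9% lay above and 57.1% below. With siRNA 2 against control the counts were 7 and 8, and 4 and 7, where all genes had 45.4% and 54.6%. The highest of each list there were SLC27A1 (log2 difference 0.58, limma adjusted p = 0.514) and PIK3C3 (0.46, limma adjusted p = 0.451).

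The remaining 3 lists had 1 gene called with the block, DGAT2, against 9.33% of all genes. DGAT2, which makes triacylglycerol, averaged 11.7 ± 3.37 RPM with siRNA 2 and 7.71 ± 2.81 RPM with siRNA 1 (SD, n = 3 each; log2 difference 0.56, limma adjusted p = 0.411, 0.0426 with the block), and MGLL, the monoacylglycerol lipase gene, had a log2 difference of -0.32 in the same comparison (limma adjusted p = 0.404). The DGAT2 difference was 0.304 without siRNA 1 replicate 1 and 0.785 without siRNA 1 replicate 3, and that of MGLL was -0.0968 without siRNA 2 replicate 3. Of 17 deacylation genes 16 were tested. LYPLA1, a lysophospholipase gene, averaged 260.6 ± 20.8 RPM with siRNA 2, against 306.7 ± 11.3 RPM in control (SD, n = 3 each; log2 difference -0.24, limma adjusted p = 0.382), and the phospholipase gene PLA2G12A had a log2 difference of -0.33 between siRNA 2 and siRNA 1 (limma adjusted p = 0.241). Of 14 genes of phosphatidylcholine and phosphatidylethanolamine synthesis 12 were tested, and the ethanolamine kinase genes ETNK1 and ETNK2 had log2 differences of 0.36 and -0.27 between siRNA 2 and siRNA 1 (limma adjusted p = 0.323 and 0.433), and that of ETNK2 ranged from -0.441 to -0.167 with 1 library left out.

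**Figure D3:**
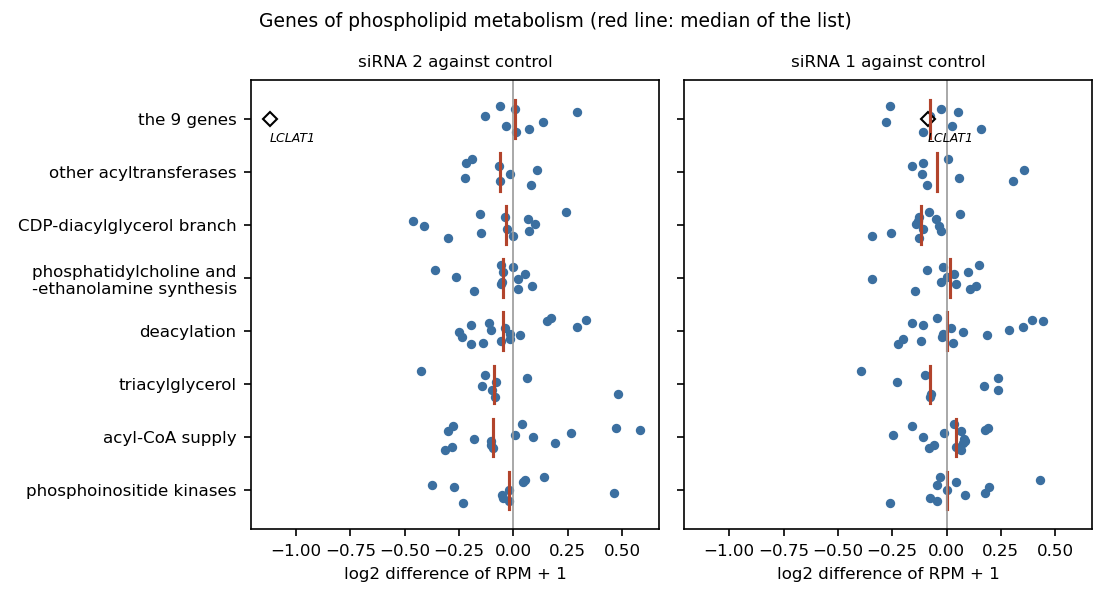
Log2 difference of RPM + 1 (horizontal axes) for the tested genes of the 9 acyltransferases and of 7 lists of phospholipid metabolism (rows), with siRNA 2 and with siRNA 1, each against control; red lines are list medians and the diamond is LCLAT1. The list genes other than LCLAT1 lie between -0.46 and 0.58 with siRNA 2, and their medians are close to 0.

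The genes whose levels were most like those of LCLAT1 over the 9 libraries came from elsewhere. By Pearson's r of log2(RPM + 1), the closest of 7933 candidates averaging 10 RPM or more were PVRL2 (r = 0.989), MRPL11 (0.987), CMPK1 (0.983), AGTRAP (0.980) and B4GALT4 (0.977). PVRL2 encodes another nectin, MRPL11 a mitochondrial ribosomal protein, CMPK1 a pyrimidine nucleotide kinase, AGTRAP a protein that binds an angiotensin receptor, and B4GALT4 a galactosyltransferase. All 5 share with LCLAT1 the split between the siRNA 2 libraries and the other 6, so these values describe that split and carry no test. Levels with siRNA 2 were 39.3% of control for PVRL2, 67.5% for MRPL11, 54.6% for CMPK1, 70.9% for AGTRAP and 41.9% for B4GALT4, beside 45.7% for LCLAT1. B4GALT4 was also lower in every siRNA 1 library than in every control library, at 83.7% of control, a pattern that 5.59% of all genes showed. In each of the 6 genes replicate 2 of siRNA 2 had the highest of the 3 values. The 5 genes were chosen by likeness over these same libraries, so this shared order is partly fixed by that choice.

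**Figure D4:**
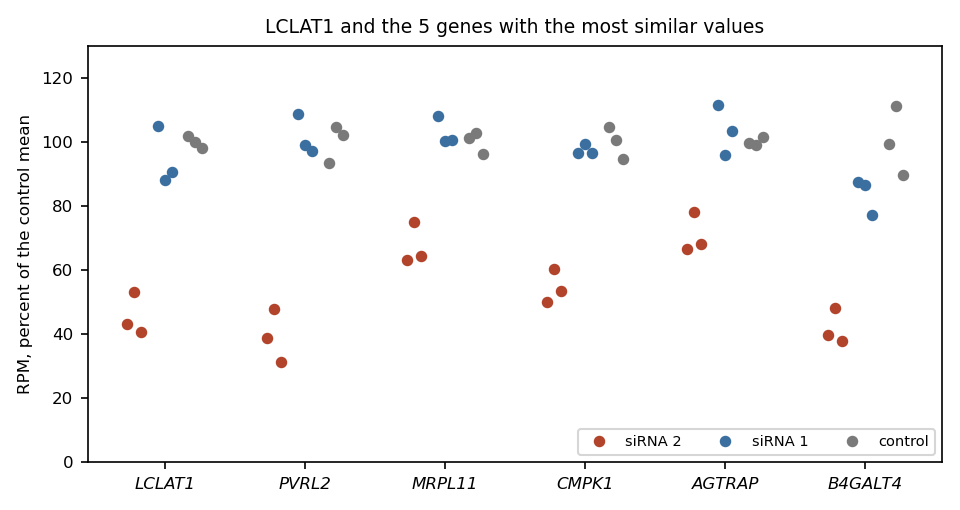
Level of LCLAT1 and of the 5 genes most like it, as a percentage of the mean of the 3 control libraries (vertical axis), with 1 point per library for siRNA 2, siRNA 1 and control. In all 6 genes the siRNA 2 libraries lie below the other libraries; their mean is 45.7% of control for LCLAT1 and 70.9% for AGTRAP.

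The neighbours of LCLAT1 on chromosome 2 did not share its pattern. Of the 3 protein-coding genes on each side in RefSeq (GRCh38.p14), ALK, LBH, GALNT14 and CAPN14 lay under the filter, and YPEL5 and CAPN13 were tested. YPEL5 averaged 53.4 ± 9.64 RPM with siRNA 2, 62.4 ± 5.19 RPM with siRNA 1 and 61.8 ± 8.43 RPM in control (SD, n = 3 each). CAPN13 averaged 7.66 ± 2.35 RPM with siRNA 2, 7.64 ± 1.11 RPM with siRNA 1 and 8.17 ± 3.25 RPM in control. The groups of both genes overlapped in every comparison, and neither passed the threshold in limma.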

How the data were processed

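Per the labels' protocols, 100 ng of RNA per sample went into Ion AmpliSeq transcriptome libraries; each gene is read through a single amplicon, so levels of different genes also reflect their amplicons and a transcript sharing an amplicon cannot be told apart. The authors deposited RPM values. Per the submitters' processing notes reads were placed on hg19. How reads were aligned and counted is not given in the sources used here. In all 9 libraries 100% of values were whole multiples of 1 read (tolerance 0.1 read), but for siRNA 2 replicate 1 the step of 0.0998 RPM could not be told from a rounded decimal step, so count tests used the other 8. Reads carry no molecular identifiers, so floors in reads cover counting error only.

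The tests used limma 3.58.1 in R 4.3.3 on log2(RPM + 1), with a trended prior variance and 1 spread shared by the 3 groups, two-sided, with Benjamini-Hochberg adjustment over 11158 genes and a threshold of 0.05. Log2 differences on this scale understate changes of low genes. Confidence intervals are from the fit without the replicate block. The fit without the block was also run on simulated data with independent libraries. Such data lack the pairing by replicate number, so they do not check its effect. Alternatives were edgeR 4.0.16, DESeq2 1.42.0, pseudocounts, filters, scalings, the replicate block and leaving out each library. Replicate numbers in the sample titles pair the libraries: deviations from group means correlated at 0.252 to 0.417 in the 9 pairs sharing a number, against -0.340 to -0.0275 in the other 18. For each gene the deviations within a group cancel out. The negative values in the other 18 pairs therefore largely follow from the positive ones and add no support of their own. Library pairs within a group differed beyond counting noise (chi-square over degrees of freedom 8.90 to 18.4 in the 7 pairs with reads), so none was counted as a copy. Named genes are the 9 members, PVRL4, up to 4 called genes per list or otherwise the 2 with the smallest p, given in the comparison of that p, the 5 genes most like LCLAT1, and its tested neighbours. Members and lists were chosen with earlier results of these data known.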

Additional observations from a re-analysis of the deposited data

How the results depend on the processing

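No log2 difference of LCLAT1 changed sign under any alternative. With 1 library left out the LCLAT1 difference ranged from -1.23 to -1.04 for siRNA 2 against control and from -1.15 to -0.958 for siRNA 2 against siRNA 1. For siRNA 1 against control it ranged from -0.162 to -0.0380. LCLAT1 was chosen by its siRNA 2 differences in these same libraries, so their ranges are a description and no support. Of the other 8 acyltransferase genes 0 were called in each comparison under each alternative, except 1, AGPAT5, with the replicate block for siRNA 2 against siRNA 1. The block changed no other call among the members. All-gene counts moved more: with no filter 29 (siRNA 2 against control), 57 (siRNA 1 against control) and 197 genes (siRNA 2 against siRNA 1) were called, against 76, 95 and 340 with the filter, and with the replicate block 380, 206 and 1041. EdgeR on 8 libraries called 17 for siRNA 2 against control, 108 for siRNA 1 against control and 147 for siRNA 2 against siRNA 1, and DESeq2 159 for siRNA 1 against control. With 1 library left out, siRNA 2 against control gave 18 to 70 genes, and the count moved by over 1.5 times without any 1 of the 3 control libraries or without siRNA 2 replicate 1 or 3. SiRNA 1 against control gave 46 to 137, with such moves without any 1 control library or without siRNA 1 replicate 1 or 3. SiRNA 2 against siRNA 1 gave 153 to 306, with such moves without siRNA 1 replicate 1 or 3 or siRNA 2 replicate 1. Fits without a library have fewer samples; for the other settings the cause was not tested. The fall of PVRL4 with siRNA 1 passed the threshold with a pseudocount of 5 (limma adjusted p = 0.0474), quantile normalization (0.0486) and DESeq2 (0.0252). EdgeR and DESeq2 on 8 libraries were chosen after seeing the data.

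Small differences that missed the threshold changed sign. AGPAT3 for siRNA 2 against control became 0.00342 by DESeq2, and for siRNA 2 against siRNA 1 AGPAT2 became 0.0144 under quantile normalization and LPCAT1 0.0645 by edgeR and 0.0736 by DESeq2. With 1 library left out, for siRNA 2 against control AGPAT1 ranged from -0.0572 to 0.107, AGPAT2 from -0.108 to 0.269, AGPAT3 from -0.0988 to 0.0376, LPCAT3 from -0.0508 to 0.0669 and LPCAT4 from -0.225 to 0.112. For siRNA 1 against control AGPAT1 ranged from -0.190 to 0.0362, AGPAT3 from -0.0406 to 0.0957, LPCAT1 from -0.159 to 0.0188, LPCAT2 from -0.0202 to 0.148 and LPCAT3 from -0.0756 to 0.0238. For siRNA 2 against siRNA 1 AGPAT1 ranged from -0.0230 to 0.203, AGPAT2 from -0.267 to 0.110, LPCAT1 from -0.138 to 0.0291 and LPCAT3 from -0.0265 to 0.0912. Without a change of sign, siRNA 2 against control ranged from -0.213 to -0.0352 for LPCAT1 and from 0.0694 to 0.224 for AGPAT5, siRNA 1 against control from -0.422 to -0.124 for LPCAT4, and siRNA 2 against siRNA 1 from 0.142 to 0.311 for LPCAT2 and from 0.339 to 0.511 for AGPAT5. The correlations of the 5 genes with LCLAT1 lay between 0.965 and 0.994 under the other pseudocounts and scalings and with 1 library left out. Those genes were picked by this correlation, so its range is a description only. AGPAT2, at 68 to 120 reads, is the member whose depth limits precision most.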
